A study of Mus musculus with 6 samples.

Results

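The genes of sphingolipid synthesis and sphingosine-1-phosphate (S1P) signalling were examined in lungs of Zpbp2 KO and WT mice. They were chosen by name, and 38 genes of the 47069 in the count table belong to them. All mice were adults on the C57BL/6J background held in a light/dark cycle, and lungs were taken at ZT10, 10 h after lights on. WT mice were C57BL/6J animals born in the same colony. KO mice were of the strain B6.129S7-Zpbp2 tmZuk/Mmjax, with a constitutive deletion at the upstream end of Zpbp2, in every cell and not in the lung alone. It takes exons 1 to 3 and part of the promoter and enhancer. The study states that KO mice lack Zpbp2 expression and that the rest of the promoter is hypermethylated. Each group held 3 mice with 1 library each (WT4 to WT6 and KO4 to KO6), and neither the exact age nor the sex of a mouse is in the labels.

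Sphingolipid synthesis starts when serine palmitoyltransferase joins serine to palmitoyl-CoA in the endoplasmic reticulum, a step held back by the ORMDL proteins. The product is turned into dihydroceramide and ceramide, and ceramide is built into sphingomyelin and glycosphingolipids, phosphorylated, or cut to sphingosine, which sphingosine kinases turn into S1P. S1P acts through G protein-coupled receptors that guide lymphocyte exit from tissues and keep the endothelium tight, and the lung is rich in such endothelium. Ormdl3, a neighbour of Zpbp2 on chromosome 11, ties the deleted region to this pathway, and the comparison asks whether RNA levels of the pathway differed in the KO lungs.

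Between 19981428 and 46796908 reads per mouse fell on genes, so that 3 counts amounted to between 0.0629 and 0.148 CPM, a limit that covers counting error only. CPM is the count of a gene relative to the library size, here scaled by the TMM method. Zpbp2 itself had 1 or 2 counts in each WT library and 0 in each KO library, all at or under 3 counts, so it says little about the labels. The lung markers Sftpc and Scgb1a1 lay between 9316 and 32980 CPM in all 6 mice, and Xist, the RNA of the inactive X chromosome, lay between 714.4 and 992.5 CPM in all 6, with each of the Y-linked genes Ddx3y, Uty and Eif2s3y at or under 0.189 CPM. A pair of libraries stood apart. KO5 held 1121 CPM summed over 10 B cell markers, against 266.4 and 317.2 CPM in the other KO mice and 138 to 159.6 CPM in the WT mice. WT6 held 162.2 CPM of the immediate early gene Fos, against 12.4 to 46.6 CPM in the other 5 mice. In whole lung, fewer cells of a type and less RNA per cell cannot be told apart.

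All 38 genes passed the filter on low counts and were among the 17037 genes tested, with mean levels from 0.626 to 426.1 CPM. S1pr5, an S1P receptor of circulating immune cells, was higher in the KO lungs, and Sphk1, an S1P-producing kinase, and Sgms1, a sphingomyelin synthase, were lower. These 3 of 38 genes (7.89%) had an adjusted p of at most 0.05 by the quasi-likelihood test of edgeR, with p-values adjusted by the Benjamini-Hochberg method over all genes tested. Of all genes tested 1089 (6.39%) did so, 3.72% higher and 2.67% lower in KO, and the share among the sphingolipid genes was near that background. None of the 38 also reached the study's second threshold, an absolute log2 fold change of at least 1.5, which 109 genes (0.640%) reached together with the adjusted p. At an unadjusted p below 0.05 by the same test there were 9 of the 38 (23.7%), against 25.5% of all genes tested.

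The 3 KO values lay wholly above or below the 3 WT values for 10 of the 38 genes (26.3%), 5 above (13.2%) and 5 below (13.2%). Over all genes tested this held for 32.6%, 17.0% above and 15.6% below. The median log2 fold change of the 38 genes was 0.022, against 0.003 over all genes tested, and their median absolute log2 fold change was 0.109, against 0.146. They were also measured more precisely than most: their median level was 54.99 CPM and their median SE 0.079 on the log2 scale, against 20.58 CPM and 0.105 over all genes tested. For 28 of the 35 genes not called, the 95% interval of the log2 fold change lay wholly within -0.5 to 0.5.

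**Figure D1:**
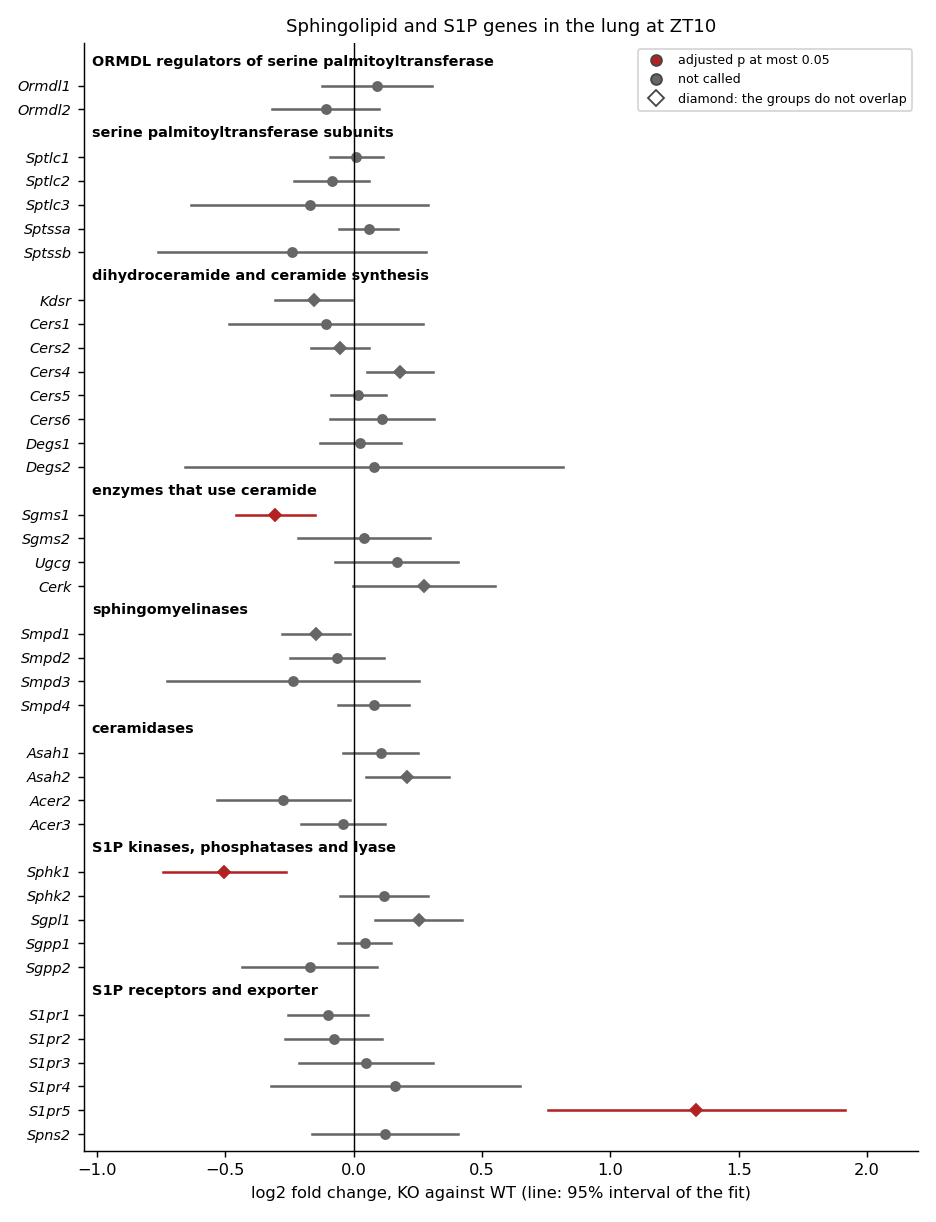
Log2 fold change of KO against WT mice (points) with the 95% interval of the edgeR fit (lines) for each of the 38 genes, grouped by role; red marks an adjusted p of at most 0.05, and diamonds mark genes whose 3 KO and 3 WT values do not overlap. S1pr5 at 1.33 lies far to the right, Sphk1 at -0.50 and Sgms1 at -0.31 lie to the left, and most other intervals are short and cross 0.

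The regions around the RefSeq transcript starts of the 3 called genes are shown here because these are the genes that the comparison turned on. Each runs 5′ to 3′ on the strand of its gene, from 250 bases before to 50 bases after the start, in GRCm38.p6. Capitals mark matches, on either strand, to CACGTG, the E-box bound by the clock factors CLOCK and BMAL1, or to AGGTCA, the element read by the REV-ERB and ROR receptors. For Sphk1 and Sgms1, 1 of several annotated starts is shown.
S1pr5 start site 1 (chr9:21248394-21248693, - strand): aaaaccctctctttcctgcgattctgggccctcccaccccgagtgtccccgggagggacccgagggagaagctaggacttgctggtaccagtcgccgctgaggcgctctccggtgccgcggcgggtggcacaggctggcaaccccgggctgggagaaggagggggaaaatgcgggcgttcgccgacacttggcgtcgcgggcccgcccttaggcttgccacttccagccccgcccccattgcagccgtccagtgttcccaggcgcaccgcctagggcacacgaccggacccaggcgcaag
Sphk1 start site 4 (chr11:116532194-116532493, + strand): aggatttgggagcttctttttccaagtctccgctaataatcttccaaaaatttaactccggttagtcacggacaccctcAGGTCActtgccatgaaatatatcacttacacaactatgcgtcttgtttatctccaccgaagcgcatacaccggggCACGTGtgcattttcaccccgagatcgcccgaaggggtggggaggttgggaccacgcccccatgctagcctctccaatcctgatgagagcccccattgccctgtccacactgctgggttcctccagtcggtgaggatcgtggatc
Sgms1 start site 2 (chr19:32388000-32388299, - strand): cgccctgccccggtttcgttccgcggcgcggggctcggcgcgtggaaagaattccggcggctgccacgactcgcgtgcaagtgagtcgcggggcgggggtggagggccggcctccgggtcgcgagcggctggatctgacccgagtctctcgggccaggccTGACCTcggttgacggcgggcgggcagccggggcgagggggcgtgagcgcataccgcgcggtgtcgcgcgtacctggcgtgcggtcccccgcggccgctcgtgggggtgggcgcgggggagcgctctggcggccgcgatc
The S1pr5 region held neither motif. The Sphk1 region held both, with the E-box beginning 95 bases and the AGGTCA half-site 171 bases before the start. The region of start site 5 overlaps this one and holds the same 2 matches, at the same bases, while start sites 1, 2 and 3 of Sphk1 held neither. The Sgms1 region held an AGGTCA half-site, read on the opposite strand, that begins 90 bases before the start. Its start site 3 held one 38 bases before that start, and start sites 1 and 4 held neither motif. Among the sphingolipid genes, 35 of 38 had a region in the table, 50 regions in all. CACGTG occurred in 8 of these 50 (16.0%), against 7.15% of all 32851 regions of the same length, and AGGTCA occurred in 14 (28.0%), against 16.3%. Overlapping regions count the same bases more than once, as in start sites 4 and 5 of Sphk1. By gene, 7 of the 35 had CACGTG and 11 had AGGTCA in a region, and no share by gene over all genes was computed. Matches to the motifs can overlap at their ends, and those shown lie apart. A match in such a window is a description of its letters and no evidence of binding.

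The S1P receptors and the exporter come first, since the strongest difference lay there. S1pr5 (ENSMUSG00000045087, minus strand of chromosome 9, 21242912 to 21248443) encodes a receptor of natural killer (NK) cells and patrolling monocytes that guides their exit into blood. It stood at 4.91, 3.45 and 4.01 CPM in WT4, WT5 and WT6 and at 9.87, 7.61 and 13.9 CPM in KO4, KO5 and KO6. Every KO value exceeded every WT value, and the KO values were spread more widely. The means were 4.12 ± 0.737 CPM in WT and 10.5 ± 3.19 CPM in KO mice (SD, n = 3 each), from 72 to 124 counts in WT and 202 to 363 counts in KO libraries. The log2 fold change was 1.33 ± 0.25 (SE), with an adjusted p of 0.0298 by edgeR's quasi-likelihood test. The call held without KO4 (0.0439) and without KO5 (0.0141) and was lost without KO6 (0.0689), WT4 (0.0681), WT5 (0.133) or WT6 (0.105), while the fold change stayed between 1.07 and 1.52. Over all alternatives the adjusted p ranged from 2.26e-05, by DESeq2, to 0.133.

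Markers of several leukocyte types, among them cells known to carry S1pr5, were also higher in KO. Of 8 markers of nonclassical monocytes, the patrolling cells of blood vessels, 6 were called higher in KO, against 3.72% of all genes tested. They were Cx3cr1, Cd300e, Treml4, Adgre4, Spn and Pou2f2. The marker lists were chosen with earlier results of these data known. Cx3cr1, Cd300e, Adgre4 and Pou2f2 are among the genes the study reported as changed in these same mice at ZT10. Counts of calls in the lists are thus no independent evidence. Ace and Nr4a1 were not called. Other lung cells also make markers of this list, and how far the 8 are particular to these monocytes was not tested. The sum of all 8 markers, most of it Ace, was 1541 to 1601 CPM in WT and 1599 to 1901 CPM in KO mice, so the groups overlapped. The sum without Ace and Nr4a1, a choice made after their values were seen, was 61.9 to 80.6 CPM in WT mice and 202.4, 218.1 and 274.0 CPM in KO4, KO5 and KO6. Cd300e stood at 3.93 to 4.18 CPM in WT and at 16.8, 9.70 and 23.3 CPM in KO4, KO5 and KO6. The order of the KO mice for S1pr5 recurred in Cd300e, Treml4, Adgre4 and Cx3cr1. In the sum without Ace and Nr4a1 KO5 lay above KO4, so the order did not hold in all 6 called markers. An order of 3 mice can easily recur by chance.

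All 10 NK cell markers had a log2 fold change above 0, with a median of 0.70, and 1 of them, the NK receptor Ncr1, was called (adjusted p 0.0450 by edgeR's quasi-likelihood test). Their sum was 39.7 to 55.9 CPM in WT mice and 63.5, 71.0 and 85.0 CPM in KO4, KO5 and KO6, again with KO5 above KO4. No marker of either list was at 0. Other myeloid markers were higher as well. Of 6 neutrophil markers tested, 3 were called higher and the groups did not overlap for 6, with sums of 56.4 to 94.6 CPM in WT and 149.4 to 168.3 CPM in KO mice. Of 7 classical monocyte markers, 4 were called higher, with overlapping sums of 394.8 to 625.2 CPM in WT and 535.2 to 716.8 CPM in KO mice. B cell markers were above 0 in 10 of 10 but none was called, with 10 of 10 at an unadjusted p below 0.05 by edgeR, 9 called by DESeq2 and 10 by edgeR's exact test. Their sum was 138 to 159.6 CPM in WT mice and 266.4, 1121 and 317.2 CPM in KO4, KO5 and KO6. T cell markers were above 0 in 10 of 10, with a median log2 fold change of 0.87, and none was called. Of these, 8 had an unadjusted p below 0.05 by edgeR, and the groups did not overlap for 7. DESeq2 called 6 of them and edgeR's exact test 2. Their sum was 55.4 to 61.9 CPM in WT mice and 62.4, 165 and 86.9 CPM in KO4, KO5 and KO6. Over all genes tested, 3.72% were called higher and 2.67% lower, and 25.5% had an unadjusted p below 0.05 by edgeR. The KO values lay wholly above the WT values for 17.0%. DESeq2 called 1102 of the 17037 genes higher and edgeR's exact test 942. The endothelial markers gave 1 call of 10 (Cldn5, lower), and their sums overlapped at 5429 to 5842 CPM in WT and 5150 to 6204 CPM in KO mice. What part the cells behind these markers have in the S1pr5 value was not tested.

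**Figure D2:**
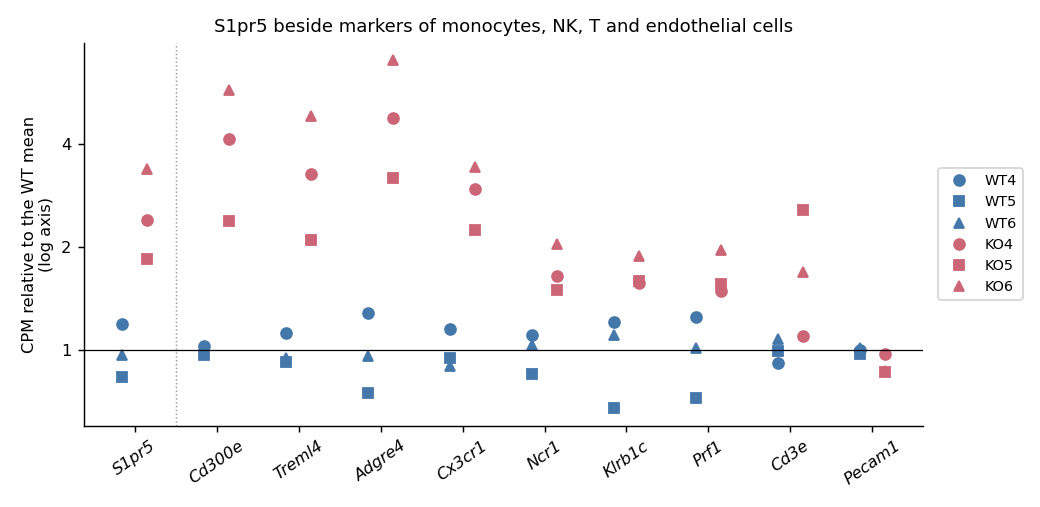
Level of S1pr5 and of single marker genes in each mouse, as CPM relative to the mean of the 3 WT mice (log axis). Blue points are WT and red points KO mice, and the shape gives the library number, which is not taken to pair mice. KO6, KO4 and KO5 fall in this order for S1pr5, Cd300e, Treml4, Adgre4 and Cx3cr1, and KO5 is highest for Cd3e, a T cell marker. The nonclassical monocyte markers Spn, Pou2f2, Ace and Nr4a1 are not shown.

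The other 4 receptors and the exporter were measured at higher levels, and 0 of these 5 were called by edgeR or DESeq2 or had an unadjusted p below 0.05 by edgeR. Per length, in RPKM (CPM divided by the exon length in kb), S1pr1 led with 104.8 ± 7.93 in WT and 97.8 ± 2.42 in KO mice. S1pr1 is the receptor of endothelium and of lymphocytes leaving lymph nodes. Spns2, the exporter that carries S1P out of endothelial cells, followed with 25.4 ± 1.21 and 27.7 ± 5.05 RPKM. S1pr3 had 12.5 ± 1.47 and 12.9 ± 1.47, S1pr4 had 8.42 ± 0.818 and 9.35 ± 2.85, and S1pr2 had 6.51 ± 0.685 and 6.16 ± 0.133 RPKM. S1pr5 came last with 1.65 ± 0.295 and 4.18 ± 1.28 RPKM. In WT mice no neighbours in this order overlapped, with S1pr4 at 7.69 to 9.31 and S1pr2 at 5.73 to 6.98 RPKM closest. In KO mice S1pr3, at 11.9 to 14.6 RPKM, overlapped with S1pr4, at 6.82 to 12.4 RPKM. The order depends on the exon length used, 7971 bases for S1pr2 and 2386 for S1pr4. In CPM S1pr2, with a WT mean of 51.9, lay above S1pr4, with 20.1.

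The fold changes of these 5 genes were small. S1pr1 had a log2 fold change of -0.10 (95% interval -0.26 to 0.06) and S1pr2, a receptor that acts against cell migration, one of -0.08 (-0.27 to 0.11). S1pr3, a receptor of smooth muscle and endothelium, had 0.05 (-0.21 to 0.31) and Spns2 had 0.12 (-0.16 to 0.41). S1pr4, the receptor of lymphoid and myeloid cells, had the widest interval of the 5, at 0.16 (-0.32 to 0.65). S1pr4 stood at 22.2, 19.7 and 18.4 CPM in the WT mice and at 16.3, 29.7 and 21.0 CPM in KO4, KO5 and KO6. The KO mean of S1pr4 thus rested on KO5, and without KO5 its log2 fold change was -0.11. KO5 was also the library rich in B cell markers, with 165 CPM of T cell markers against 62.4 and 86.9 CPM in the other KO mice. The part of these cells in the S1pr4 value was not tested. In Spns2 the KO mean rested on KO4, at 136.7 CPM against 100.3 and 101.7 CPM.

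**Figure D3:**
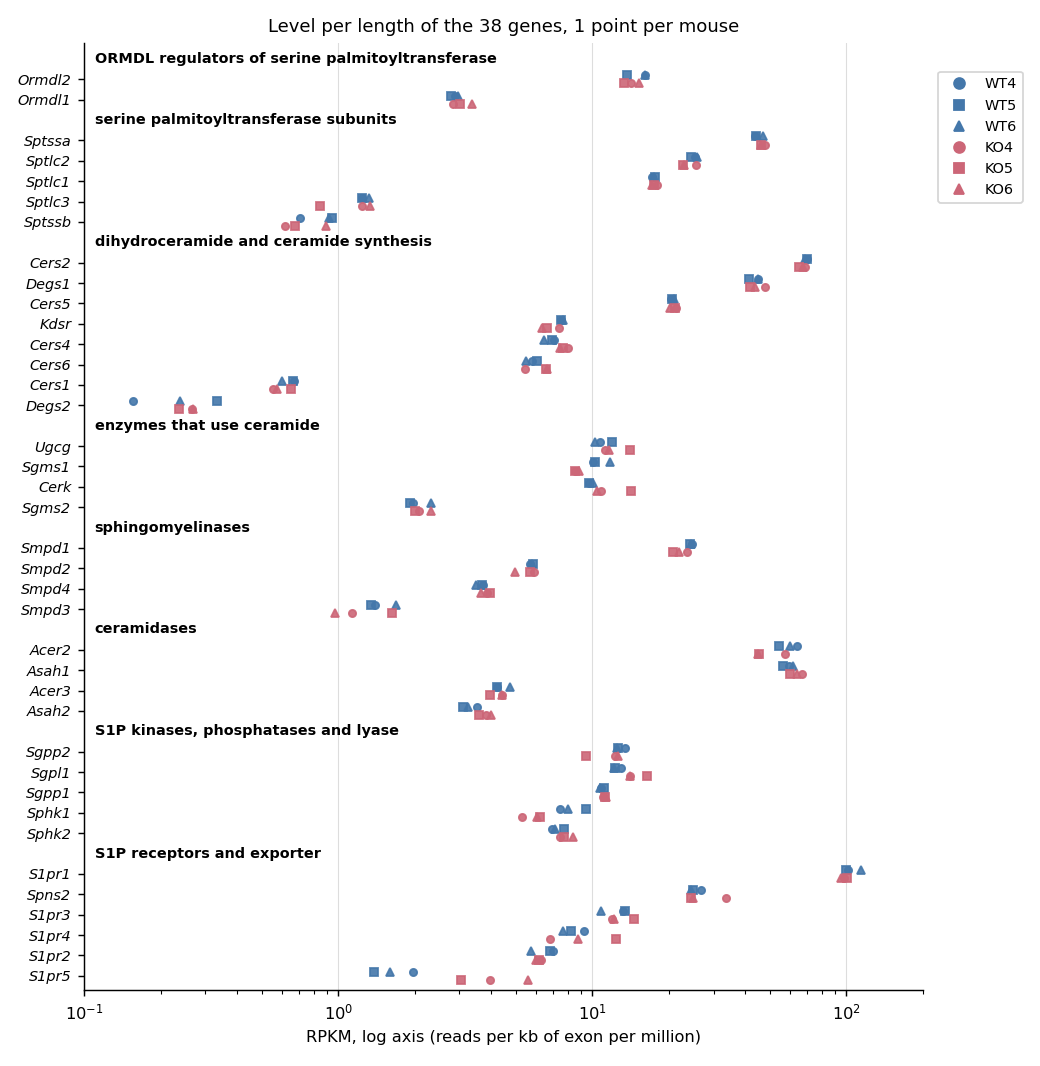
Level per length of each of the 38 genes in each mouse, as RPKM on a log axis, by role; blue points are WT and red points KO mice, and the shape gives the library number. The mice lie close together for most genes, S1pr1 lies near 100 RPKM, and the S1pr5 points of KO mice lie to the right of those of WT mice.

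Among the enzymes that make and remove S1P, the kinase Sphk1 was lower in KO. Sphk1 (ENSMUSG00000061878, plus strand of chromosome 11, 116530925 to 116536674) stood at 35.8, 45.0 and 38.4 CPM in WT4, WT5 and WT6 and at 25.4, 29.6 and 28.8 CPM in KO4, KO5 and KO6. The highest KO value was below the lowest WT value. The means were 39.7 ± 4.74 and 27.9 ± 2.27 CPM (SD, n = 3 each), from 889 to 1187 counts in WT and 519 to 1414 counts in KO libraries. The log2 fold change was -0.50 ± 0.10 (SE, 95% interval -0.74 to -0.26), with an adjusted p of 0.0374 by edgeR's quasi-likelihood test. The call held without KO5 (0.0402) and was lost without KO4 (0.059), KO6 (0.0901), WT4 (0.0613), WT5 (0.13) or WT6 (0.101), with fold changes from -0.57 to -0.41. Over all alternatives the adjusted p ran from 0.000723 to 0.13. Platelets store S1P, and their 4 markers summed to 68.3 to 69.4 CPM in WT and 44.1 to 58.2 CPM in KO mice. The 3 red cell markers summed to 1708 to 1835 CPM in WT and 827.6 to 1137 CPM in KO mice. All 3 were called lower, the only calls among the platelet and red cell markers, and the platelet marker Gp9 had a log2 fold change of -0.10. Sums of fibroblast markers (1202 to 1453 and 1090 to 1179 CPM) and of type 1 alveolar markers (5805 to 5845 and 4904 to 5663 CPM) were also lower in KO without overlap. The part of these markers in the Sphk1 value was not tested.

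Sphk2, the nuclear and mitochondrial sphingosine kinase, had a log2 fold change of 0.12 (95% interval -0.05 to 0.29). Its exons overlap those of Dbp and Rpl18 on the opposite strand, so its counts are uncertain. Sgpl1, the lyase that destroys S1P, stood at 79.8, 75.5 and 74.5 CPM in the WT mice and at 86.5, 100.7 and 86.2 CPM in the KO mice. All 3 KO values lay above the WT values, but at a log2 fold change of 0.25 ± 0.07 (SE) its adjusted p was 0.0845 by edgeR's quasi-likelihood test, and between 0.0401, by DESeq2, and 0.245 over the alternatives. The S1P phosphatases Sgpp1 and Sgpp2 had log2 fold changes of 0.04 (adjusted p 0.585) and -0.17 (adjusted p 0.382).

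**Figure D4:**
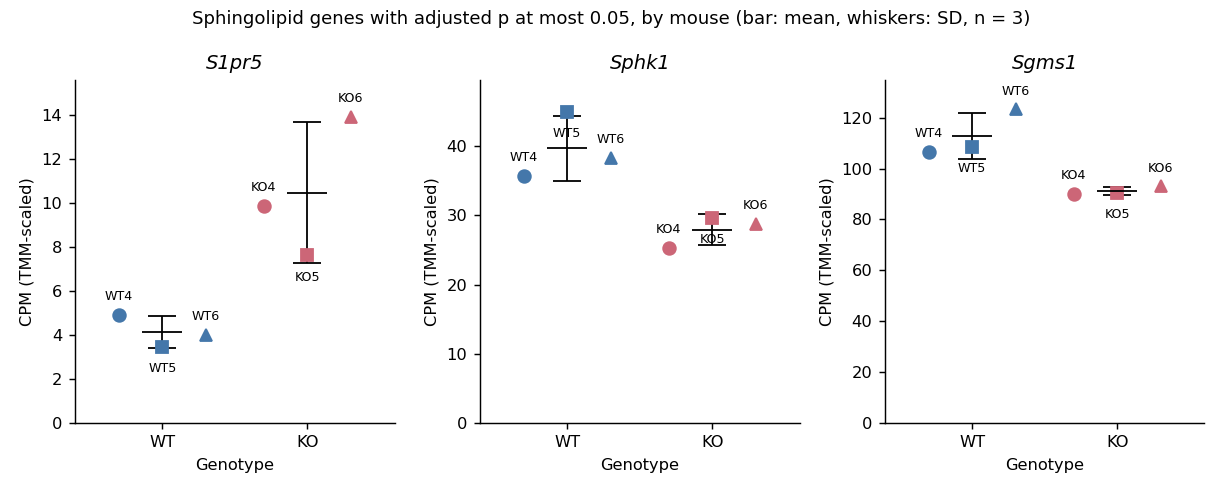
Level of S1pr5, Sphk1 and Sgms1 in each mouse, as CPM on TMM-scaled library sizes; points are mice, horizontal bars the mean of 3 mice and whiskers the SD. The 3 KO mice lie above all WT mice for S1pr5 and below all WT mice for Sphk1 and Sgms1.

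Of the enzymes that use ceramide, Sgms1, the sphingomyelin synthase of the Golgi, was lower in KO. Sgms1 (ENSMUSG00000040451, minus strand of chromosome 19, 32122727 to 32389714) stood at 106.6, 108.5 and 123.3 CPM in WT4, WT5 and WT6 and at 90.2, 90.5 and 93.2 CPM in KO4, KO5 and KO6. The KO mice lay close together below all WT mice, of which WT6 was highest. The means were 112.8 ± 9.16 and 91.3 ± 1.64 CPM (SD, n = 3 each), from 2266 to 3816 counts in WT and 1846 to 4321 counts in KO libraries. The log2 fold change was -0.31 ± 0.07 (SE, 95% interval -0.46 to -0.15), with an adjusted p of 0.0423 by edgeR's quasi-likelihood test. The call was lost whichever of the 6 mice was left out, with adjusted p from 0.0692 without KO5 to 0.132 without WT5, and 0.0714, 0.1, 0.0775 and 0.0863 without KO4, KO6, WT4 and WT6. The fold changes then lay between -0.35 and -0.24, and over all alternatives the adjusted p ran from 0.00275 to 0.132.

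Sgms2, the sphingomyelin synthase of the plasma membrane, had 2.07 ± 0.215 RPKM in WT mice, against 10.7 ± 0.869 RPKM for Sgms1, and a log2 fold change of 0.04 (adjusted p 0.866). Ugcg, which makes glucosylceramide, had 0.17 (adjusted p 0.349). Cerk, which phosphorylates ceramide, stood at 46.8, 46.8 and 48.2 CPM in the WT mice and at 52.3, 68.6 and 50.1 CPM in the KO mice. The groups did not overlap for Cerk, but KO5 stood apart, and its log2 fold change of 0.27 ± 0.12 (SE) had an adjusted p of 0.198 by edgeR's quasi-likelihood test and came to 0.11 without KO5.

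Of the ORMDL regulators, 0 of 2 were called by edgeR or DESeq2, and 0 had an unadjusted p below 0.05 by edgeR. Ormdl1 stood at 13.1 to 13.9 CPM in WT and 13.3 to 15.8 CPM in KO mice, with a log2 fold change of 0.09 (95% interval -0.12 to 0.31). Ormdl2 stood at 22.9 to 27.0 and 22.4 to 25.4 CPM, with -0.11 (-0.32 to 0.10). Ormdl1 shares exon sequence with Gm28778 on its own strand and Ormdl2 with Dnajc14 on the opposite strand, and reads of such stretches may be lost or misplaced. Ormdl3, the third gene of this family, lay at 47.1, 46.2 and 45.1 CPM in the WT mice and at 43.8, 43.4 and 39.8 CPM in the KO mice, a log2 fold change of -0.12 ± 0.06 (SE) with an adjusted p of 0.232 by edgeR's quasi-likelihood test. Its groups did not overlap, as for 32.6% of all genes tested. By RT-qPCR of lungs taken around the clock, the study reported a minor but significant increase of Ormdl3 in KO mice. That is the opposite direction, by another assay and over other times of day. Per length, Ormdl2 had 15.3 ± 1.39 RPKM and Ormdl1 2.88 ± 0.0924 RPKM in WT mice.

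Of the 5 subunits of serine palmitoyltransferase, the first enzyme of the pathway, 0 were called by edgeR or DESeq2, and 0 had an unadjusted p below 0.05 by edgeR. Sptlc1, the subunit that every form of the enzyme holds, stood at 61.0, 62.7 and 62.4 CPM in the WT mice and at 64.1, 62.0 and 61.3 CPM in the KO mice, with a log2 fold change of 0.01 (95% interval -0.09 to 0.11). The catalytic subunit Sptlc2 had -0.08 (-0.23 to 0.06), and the small activating subunit Sptssa had 0.06 (-0.06 to 0.17). The alternative catalytic subunit Sptlc3 and the small subunit Sptssb were scarce, at 1.27 ± 0.042 and 0.856 ± 0.132 RPKM in WT mice, against 25.2 ± 0.724 RPKM for Sptlc2 and 44.9 ± 1.78 RPKM for Sptssa. Their log2 fold changes of -0.17 (-0.63 to 0.29) and -0.24 (-0.76 to 0.28) left room for larger differences.

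In dihydroceramide and ceramide synthesis 0 of 8 genes were called, with 2 of 8 at an unadjusted p below 0.05 by edgeR (Kdsr and Cers4) and 0 of 8 called by DESeq2. The ceramide synthases each favour acyl chains of certain lengths. Cers2, which makes very-long-chain ceramides, led them with 69.7 ± 0.780 RPKM in WT and 67.1 ± 1.73 RPKM in KO mice. Cers5 had 20.6 ± 0.281, Cers4 had 6.84 ± 0.321, Cers6 had 5.78 ± 0.281 and Cers1, the synthase of neurons and muscle, 0.646 ± 0.039 RPKM in WT mice. None of these neighbours overlapped in WT mice. The order depends on the exon length used, 12264 bases for Cers4 and 3542 for Cers5. In CPM Cers4, with a WT mean of 83.8, lay above Cers5, with 73.0. Cers1 shares exons with Gdf1, the partner gene on the same transcript, so its level is uncertain.

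Cers2 stood at 257.3, 258.3 and 252.9 CPM in the WT mice and at 251.7, 239.6 and 249.1 CPM in the KO mice. The groups did not overlap, but the log2 fold change was -0.05 ± 0.05 (SE), with an adjusted p of 0.53 by edgeR's quasi-likelihood test. Cers4 went the other way, at 86.6, 85.5 and 79.3 CPM in the WT mice and 98.8, 94.4 and 91.6 CPM in the KO mice. Its log2 fold change was 0.18 ± 0.05 (SE), with an adjusted p of 0.0981. Kdsr, the reductase after serine palmitoyltransferase, stood at 61.5, 61.1 and 62.4 CPM in the WT mice and at 60.2, 54.0 and 51.8 CPM in the KO mice. Its log2 fold change was -0.16 ± 0.06 (SE), with an adjusted p of 0.179. Cers1, Cers5 and Cers6 had log2 fold changes of -0.11, 0.02 and 0.11 (adjusted p 0.836, 0.843 and 0.47). The desaturases Degs1 and Degs2, which make ceramide from dihydroceramide, had 0.03 and 0.08 (adjusted p 0.856 and 0.909). Degs2 was the scarcest of the 38 genes, with as few as 10 counts in a library and an interval from -0.66 to 0.82.

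Among the sphingomyelinases, which free ceramide from sphingomyelin, 0 of 4 were called, with 1 of 4 at an unadjusted p below 0.05 by edgeR and 0 by DESeq2. That gene, Smpd1, the acid sphingomyelinase of lysosomes, stood at 82.1, 80.9 and 81.9 CPM in the WT mice and at 78.7, 69.5 and 73.2 CPM in the KO mice. The KO mice lay below the closely grouped WT mice, with a log2 fold change of -0.15 ± 0.06 (SE) and an adjusted p of 0.158 by edgeR's quasi-likelihood test. The neutral sphingomyelinases Smpd2, Smpd3 and Smpd4 had log2 fold changes of -0.06, -0.24 and 0.08 (adjusted p 0.66, 0.527 and 0.453). The interval was wide for Smpd3, from -0.73 to 0.25.

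Among the ceramidases, which cut ceramide to sphingosine, 0 of 4 were called, with 2 of 4 at an unadjusted p below 0.05 by edgeR and 0 by DESeq2. Asah2, the neutral ceramidase, stood at 41.0, 36.2 and 37.7 CPM in the WT mice and at 44.5, 41.8 and 46.4 CPM in the KO mice. Its groups did not overlap, and its log2 fold change of 0.21 ± 0.07 (SE) had an adjusted p of 0.118 by edgeR's quasi-likelihood test. Acer2, the Golgi ceramidase, stood at 459.0, 390.0 and 429.2 CPM in the WT mice and at 410.1, 325.6 and 321.1 CPM in the KO mice. KO4 lay within the WT range. With all 6 mice its log2 fold change was -0.27 ± 0.11 (SE), with an adjusted p of 0.174, and without KO4 it was -0.40, with 0.0399, the lowest over the alternatives, the highest being 0.371. Asah1, the lysosomal acid ceramidase, and Acer3, the ceramidase of unsaturated ceramides, had log2 fold changes of 0.10 and -0.04 (adjusted p 0.339 and 0.747). Per length, Acer2 and Asah1 overlapped in WT mice, at 54.5 to 64.1 and 56.5 to 61.9 RPKM, and both lay above Acer3, at 4.39 ± 0.303 RPKM, and Asah2, at 3.29 ± 0.211 RPKM.

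Beyond the 38 genes, 37 further genes of sphingolipid biology were listed by their role, and 34 of them were tested. Acer1, Fa2h and Apom did not pass the filter. Of the 34, 4 were called (11.8%, against 6.39% of all genes tested), all higher in KO. The groups did not overlap for 13 (38.2%, against 32.6%), and 8 (23.5%, against 25.5%) had an unadjusted p below 0.05 by edgeR. All 4 belong to the 17 genes of glycosphingolipid synthesis and lysosomal breakdown, of which 14 had a log2 fold change above 0, with a median of 0.09. The other 17 genes gave no call, with 2 at an unadjusted p below 0.05 by edgeR and 1 call each by DESeq2 and edgeR's exact test.

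Of the called genes, Gm2a, the activator that presents ganglioside GM2 for breakdown in lysosomes, stood at 104.8, 88.6 and 95.5 CPM in the WT mice and at 115.4, 133.2 and 131.2 CPM in the KO mice. It had a log2 fold change of 0.40 ± 0.08 (SE), with an adjusted p of 0.0401 by edgeR's quasi-likelihood test. Psap, the precursor of the saposins that activate lysosomal sphingolipid enzymes, stood at 899.9, 876.0 and 858.7 CPM against 1096, 1210 and 1137 CPM, a log2 fold change of 0.39 ± 0.06 (SE), with an adjusted p of 0.0232. B4galnt1, which builds complex gangliosides, stood at 62.5, 58.9 and 59.7 CPM against 75.9, 104.3 and 85.5 CPM. Its log2 fold change was 0.56 ± 0.11 (SE), with an adjusted p of 0.036. In all 3 the KO mice lay above all WT mice.

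Without WT5 none of the calls of Gm2a, Psap and B4galnt1 held, at adjusted p of 0.154, 0.119 and 0.148 by edgeR's quasi-likelihood test. Nor did any of the 3 hold without KO6 (0.108, 0.0711 and 0.0825), WT4 (0.0621, 0.0736 and 0.096) or WT6 (0.119, 0.0797 and 0.109), and without KO5 that of Gm2a was lost (0.0687). Over all alternatives the highest adjusted p of these 3 were those without WT5, and the lowest were those of DESeq2, from 7.83e-09 (Psap) to 0.000636 (Gm2a). Exons of B4galnt1 overlap Slc26a10 on the opposite strand. Of 8 alveolar macrophage markers, cells rich in lysosomes, 2 were called higher (Marco and Itgax), and the sum of the 8 was 573.6 to 865.2 CPM in WT and 707.3 to 914.1 CPM in KO mice. Markers of nonclassical monocytes (6 of 8), classical monocytes (4 of 7) and neutrophils (3 of 6) were also called higher, against 3.72% of all genes tested. Their sums are given above for S1pr5, and the lists were chosen with earlier results of these data known. The part of any of these cells in the lysosomal genes was not tested.

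**Figure D5:**
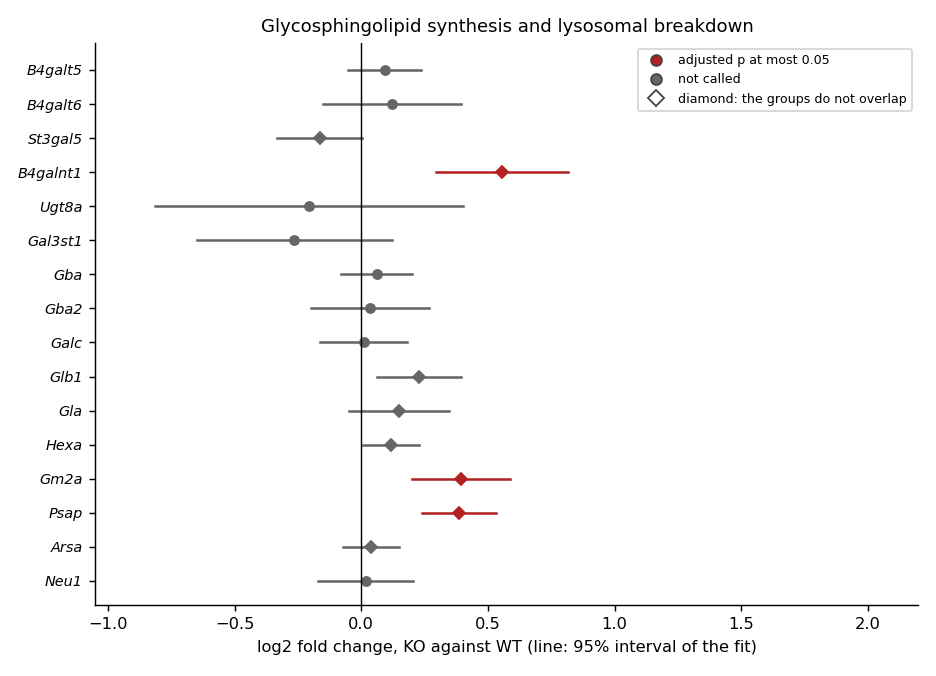
Log2 fold change of KO against WT mice (points) with the 95% interval of the edgeR fit (lines) for genes of glycosphingolipid synthesis and lysosomal breakdown; red marks an adjusted p of at most 0.05, and diamonds mark genes whose groups do not overlap. B4galnt1, Gm2a and Psap lie between 0.39 and 0.56, and most points lie right of 0.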

How the data were processed

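Lung RNA of 3 WT and 3 KO mice at ZT10 was sequenced from stranded mRNA libraries. Per the submitters' processing notes the authors used Trimmomatic 0.36, STAR 2.5.3a, Picard 2.9.0, HTSeq 0.6.0 and GRCm38, and they deposited whole counts per Ensembl gene without normalization. The strand setting of the counting is not given in the sources used here, so genes that share exons (17 of the 38, 3 of them on the same strand) are uncertain. Groups follow the sample titles, and each library is 1 mouse.

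KO was tested against WT with edgeR 4.0.16 in R 4.3.3 (limma 3.58.1), using TMM factors, filterByExpr (minimum count 10, minimum total 15), the quasi-likelihood test without covariates and p-values adjusted after Benjamini and Hochberg across the 17037 genes that passed. The SE is the log2 fold change divided by the root of F. Intervals are 95%. RPKM divides CPM by the union of exons in GENCODE mouse release 21. Plpp1, Plpp2 and Plpp3 were matched by gene ID.

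All 38 genes are accounted for, and those with an adjusted p of at most 0.05, or whose groups do not overlap, are given by mouse. Of the other pathway genes, Ormdl3 and the called ones are named, except 1 that is counted but not reported here. The members and lists were chosen with earlier results of these data known. Alternatives were DESeq2 1.42.0, its size factors and upper-quartile factors in edgeR, edgeR's exact test, no filter on low counts, a minimum of 10 counts per library, the replicate number as a block, and each mouse left out. The code was tested on simulated data. Tables and figures used Python 3.11.15, NumPy 2.4.6, pandas 2.3.3 and Matplotlib 3.10.9.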

Additional observations from a re-analysis of the deposited data

How the results depend on the processing

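The calls rest on few mice. The 3 called sphingolipid genes became 0 to 2 with 1 mouse left out, the 4 other pathway genes 0 to 4, and the 1089 genes over all genes tested 1 (without WT5) to 1278 (without KO4), with 63 without WT6, 117 without KO6 and 254 without WT4. DESeq2 called 1913 genes in all, 4 sphingolipid genes (Sgpl1 in addition) and 5 others. Same-numbered mice had correlations of -0.0316, -0.154 and -0.021 of their deviations from the group means, which gave no sign that the numbers pair mice. With 3 mice per group such values cannot settle it. With the replicate number as a block, 66 genes in all, 0 sphingolipid genes and 0 other pathway genes were called. The cause was not tested. The remaining alternatives with 6 mice gave 1094 to 1486 calls in all, 3 sphingolipid calls each and 4 or 5 others, and moved the median log2 fold change of all genes to at most 0.011.

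Of 559 single-gene values under alternatives, 503 kept sign and side of the threshold, 38 lost and 2 gained the call, and 16 changed sign. All 16 were genes without a call. Most of the 559 values belong to genes that had no call to lose, so 38 losses all fell on the few called genes. With the replicate number as a block, 7 calls were lost, leaving none. The same 7 were lost without KO6, WT5 or WT6, while 6 were lost without WT4 and 2 each without KO4 or KO5. Sptlc1 came to -0.0011 with no filter. With 1 mouse left out, log2 fold changes ran from -0.0108 to 0.0235 for Sptlc1, -0.1137 to 0.0052 for Smpd2, -0.1533 to 0.3453 for Degs2, -0.0738 to 0.0138 for Acer3, -0.034 to 0.0648 for Degs1, -0.3052 to 0.014 for Sptlc3, -0.0389 to 0.199 for Spns2, -0.1114 to 0.3412 for S1pr4, -0.0264 to 0.1261 for Sgms2 and -0.0557 to 0.1039 for S1pr3. Where a mouse was left out, 2 remained in its group. The scarce genes Degs2, S1pr5 and Sptssb had the widest 95% intervals of the 38.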

Other observations

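Smpdl3b, a membrane phosphodiesterase of macrophages related to acid sphingomyelinase, fell just outside the threshold and is named after its values were seen. It stood at 6.03, 4.45 and 4.43 CPM in WT4, WT5 and WT6 and at 12.4, 7.54 and 17.5 CPM in KO4, KO5 and KO6. Its log2 fold change was 1.32 ± 0.31 (SE), with an adjusted p of 0.0507 by edgeR's quasi-likelihood test, which ranged from 0.000314 (DESeq2) to 0.182 (without WT5) over the alternatives.

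The carriers and lipid phosphatases around S1P, also named after their values were seen, gave no call. Mfsd2b, the S1P exporter of red cells and platelets, stood at 8.81, 9.10 and 8.72 CPM in the WT mice and at 8.25, 6.16 and 7.94 CPM in the KO mice, with a log2 fold change of -0.26 and an adjusted p of 0.285 by edgeR's quasi-likelihood test. The groups did not overlap. Apom, the carrier of S1P in plasma, did not exceed 0.0987 CPM in any library and was not tested. The lipid phosphate phosphatases Plpp1, Plpp2 and Plpp3 had log2 fold changes of -0.07, -0.09 and -0.13 (adjusted p 0.495, 0.686 and 0.464).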
